A study of Mus musculus with 2 samples.

Results

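Genes of RNA helicases, of hnRNP, SR and other splicing proteins, of RNA methyltransferases and of translation initiation factors were compared between mast cells with and without Tet2. The members are all gene symbols of the deposited expression table that begin with Ddx, Dhx, Hnrnp, Srsf, Sf3, Snrp, Prpf, Rbm, Lsm, Mettl, Nsun or Eif followed by a letter or digit, without symbols ending in -ps. They came to 43 of 8139 symbols and were chosen by name, not by their values, though with earlier results of these data known. All 43 matched 1 protein-coding gene each in the GENCODE annotation.

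The cells were mast cells grown from femoral bone marrow of C57BL/6 mice for 4 to 6 weeks in medium with 10% serum and the cytokines IL-3 (10 ng/ml) and SCF (at 5 ng/ml). They were used when more than 97.5% carried FcɛRI and c-Kit. One group was wild type (WT) and the other was Tet2-/-, lacking Tet2, an enzyme that oxidises 5-methylcytosine in DNA. Each genotype has 1 library, and neither the number of mice behind it nor the design of the Tet2 allele is given in the labels. Tet2 itself was not analysed here, so the targeted gene gives no check of the genotype labels. The question of the comparison is which mast cell transcripts differ where Tet2 is absent.

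Expression is in RPKM, by its usual definition reads divided by gene model length and by the library's mapped reads. Levels may thus be compared between genes of different length. Which length was used for the deposited values is not given. Where 2 levels stand together without a genotype, the WT level comes first. The spacing of low values, taken with transcript lengths reduced for fragment size, implied 31000000 sequenced fragments for WT and 32000000 for Tet2-/-. Over 2 kb of such reduced length, 1 RPKM is 62 and 64 fragments. These depths rest on fitted mean fragment lengths of 165 and 180 bases, which the values determine only weakly, so all fragment numbers and intervals are estimates. As there is a single library of each genotype, no p-value can be given and no difference has a replicate check. Each ratio is the Tet2-/- value over the WT value, and the bracketed range is its exact 95% Clopper-Pearson counting interval, which covers counting error only and compares these libraries, not the genotypes. In bulk RNA, fewer cells of a type and less RNA per cell cannot be told apart. Of the mast cell markers, 4 of 18 were listed, from Mitf at 31.3 and 30.9 RPKM to Fcer1g at 594 and 438 RPKM. All 4 were lower in Tet2-/-, as were 48.0% of all gene models averaging 1 RPKM or more. Their ratios were 0.736 for Fcer1g, 0.859 for Slc18a2, 0.964 for Hpgds and 0.987 for Mitf, whose interval held 1. Kit, Fcer1a and Ms4a2 were not analysed here. All 6 listed of 18 monocyte and macrophage markers were higher in Tet2-/-, with summed levels of 1.06 RPKM in WT against 23.8 RPKM in Tet2-/-, of which Ly6c2 made up 0.479 and 18.8 RPKM. The 3 listed of 14 neutrophil markers summed to 1.12 and 10.1 RPKM, of which Ly6g made up 1.1 and 9.61 RPKM, with Csf3r at 0.01 in both libraries and Mpo at 0.01 in WT. The 3 listed of 12 eosinophil and basophil markers summed to 57.0 and 166 RPKM, of which Mcpt8 made up 56.1 and 163 RPKM. Ear2 was at 0.117 and 1.45 RPKM and Il5ra at 0.712 and 0.820 RPKM. All 3 were thus higher in Tet2-/-, though the interval of Il5ra held 1. The 2 listed lymphocyte markers summed to 0.035 and 0.157 RPKM, and the listed erythroid and megakaryocyte marker, Ppbp, was at 0.01 in both. The part of these other cells in the differences of the 43 genes was not tested.

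Pre-mRNA splicing is carried out by the spliceosome, whose small nuclear ribonucleoproteins carry Sm and Lsm protein rings and are remodelled by ATP-driven RNA helicases of the DEAD-box and DEAH-box families. SR proteins and hnRNP proteins bind exons and introns and steer which splice sites are used. Translation starts when eIF2 brings the initiator tRNA to the small ribosomal subunit, eIF3 holds that subunit, eIF4A unwinds the mRNA leader with help of cofactors such as eIF4H, and eIF2B recharges eIF2 with GTP. In the mast cell libraries compared here, 41 of the 43 genes averaged 1 RPKM or more.

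Most of the 43 genes stood at nearly the same level in both libraries. Differences were counted on the log2(RPKM + 1) scale over the 41 members whose mean of both libraries reached 1 RPKM. By 2-fold or more, 0 members were higher and 0 lower in Tet2-/-, where of all 2107 gene models past the same filter 2.90% were higher and 1.61% lower, 4.51% in all. By 1.5-fold, 0 members were higher and 1 was lower, against 5.84% and 3.61% of all models, 9.44% together. By 1.25-fold, 3 members were higher and 1 was lower, against 20.6% of all models in either direction. Among protein-coding models alone, 2.60% were beyond 2-fold and 6.84% beyond 1.5-fold. The 2 members under the filter were Dhx58 and Rbm44. None of the 43 was at the substituted value of 0.01 in either library. These counts describe the genes and are no test.

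Small differences pointed more often downward. Tet2-/- was below WT, by any size, in 28 of the 41 genes, where 48.0% of all models were below. Of the 32 members with a mean of 10 RPKM or more, 21 were below, against 45.6% of models at that level. The median log2 fold was -0.04, against 0.01 for all models and 0.02 for the 1264 models averaging 10 RPKM or more. The interquartile range of the log2 fold was 0.16 for the members, 0.28 for all models and 0.23 for that higher group. Counting intervals could be given for 40 of the 41. They lay wholly below 1 for 15, against 23.5% of all models, wholly above 1 for 7, against 27.1%, and held 1 for 18. No set test was made, so nothing particular to these genes is claimed from the counts.

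**Figure D1:**
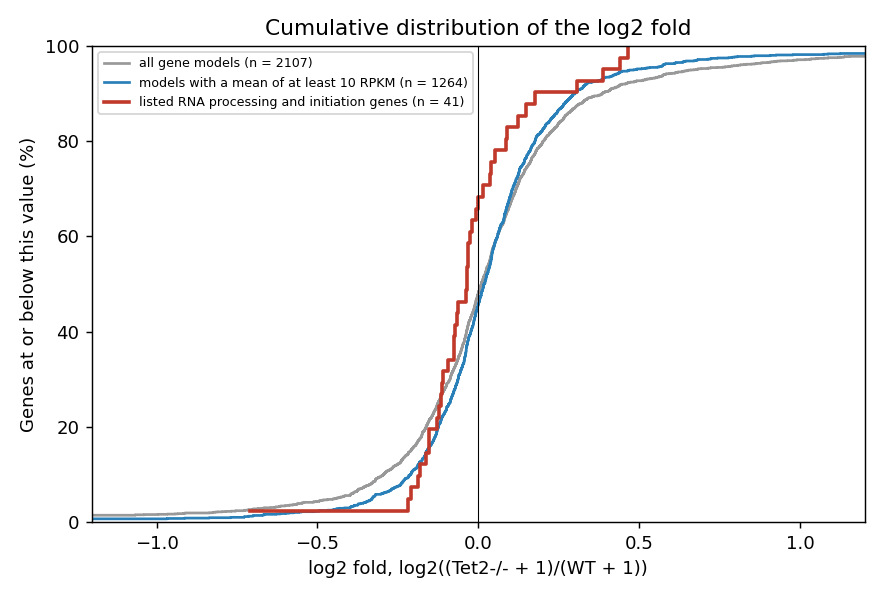
Cumulative share of genes (percent) at or below each log2 fold of Tet2-/- over WT, computed on RPKM + 1, for the 41 members (red), all 2107 gene models (grey) and 1264 models averaging 10 RPKM or more (blue), 1 library per genotype. The red line crosses 0 at 68.3%, above the grey line at 48.0%, and ends at 0.46.

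The members farthest from a ratio of 1 past the filter were Mettl22 and Ddx51 on the lower side and Nsun6, Snrpe and Eif4a1 on the higher side. Because Tet2 acts on cytosines next to guanines, the 200 bases before the RefSeq transcription start of these 5 genes (build GRCm38.p6, 5′ to 3′ on the gene's strand) are shown, with every CG in capitals. The windows are chr16:8470613-8470812, forward strand, for Mettl22, chr5:110653251-110653450, forward strand, for Ddx51, chr11:69672424-69672623, reverse strand, for Eif4a1, chr1:133610281-133610480, reverse strand, for Snrpe, and chr2:15054873-15055072, reverse strand, for the listed start of Nsun6 that was taken of 2.
Mettl22: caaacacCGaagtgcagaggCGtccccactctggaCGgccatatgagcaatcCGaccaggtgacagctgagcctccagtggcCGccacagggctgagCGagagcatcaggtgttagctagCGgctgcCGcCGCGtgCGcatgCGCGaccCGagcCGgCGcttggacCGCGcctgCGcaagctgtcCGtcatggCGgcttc
Ddx51: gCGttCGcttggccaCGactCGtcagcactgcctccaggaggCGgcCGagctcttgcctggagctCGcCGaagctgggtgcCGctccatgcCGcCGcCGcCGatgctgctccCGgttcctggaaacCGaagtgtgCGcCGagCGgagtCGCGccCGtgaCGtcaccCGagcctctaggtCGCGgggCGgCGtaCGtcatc
Eif4a1: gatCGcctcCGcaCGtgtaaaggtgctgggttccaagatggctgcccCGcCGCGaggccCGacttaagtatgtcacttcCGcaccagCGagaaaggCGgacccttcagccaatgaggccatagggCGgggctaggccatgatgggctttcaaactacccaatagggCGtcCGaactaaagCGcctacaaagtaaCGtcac
Snrpe: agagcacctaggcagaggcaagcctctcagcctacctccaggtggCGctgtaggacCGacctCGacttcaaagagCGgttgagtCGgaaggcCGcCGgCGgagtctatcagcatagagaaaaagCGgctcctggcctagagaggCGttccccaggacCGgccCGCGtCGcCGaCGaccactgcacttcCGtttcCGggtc
Nsun6: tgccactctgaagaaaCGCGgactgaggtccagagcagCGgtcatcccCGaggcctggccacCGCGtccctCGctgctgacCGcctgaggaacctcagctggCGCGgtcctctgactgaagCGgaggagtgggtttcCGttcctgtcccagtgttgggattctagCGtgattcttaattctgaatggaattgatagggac
Mettl22, Ddx51, Eif4a1, Snrpe and Nsun6 had 21, 28, 15, 18 and 13 CG in this window. Other members went the other way: Eif4h, which was higher in Tet2-/-, had 30, and Ddx26b and Hnrnph2, which were lower, had 2 and 9. No relation of CG number and direction is read from these. A promoter was found for 36 of the 43 genes. Rbm44, Eif6, Nsun5, Dhx58, Eif3j2, Rbm22 and Eif3h had no entry. Over the 36, the median was 17.5 CG, from 2 to 32, and all 36 held at least 1. Over 1425 listed protein-coding genes past the filter the median was 14, with quartiles of 9 and 20, and 98.6% held at least 1. No methylation was measured in these samples, so the sequences are shown as a description.

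**Figure D2:**
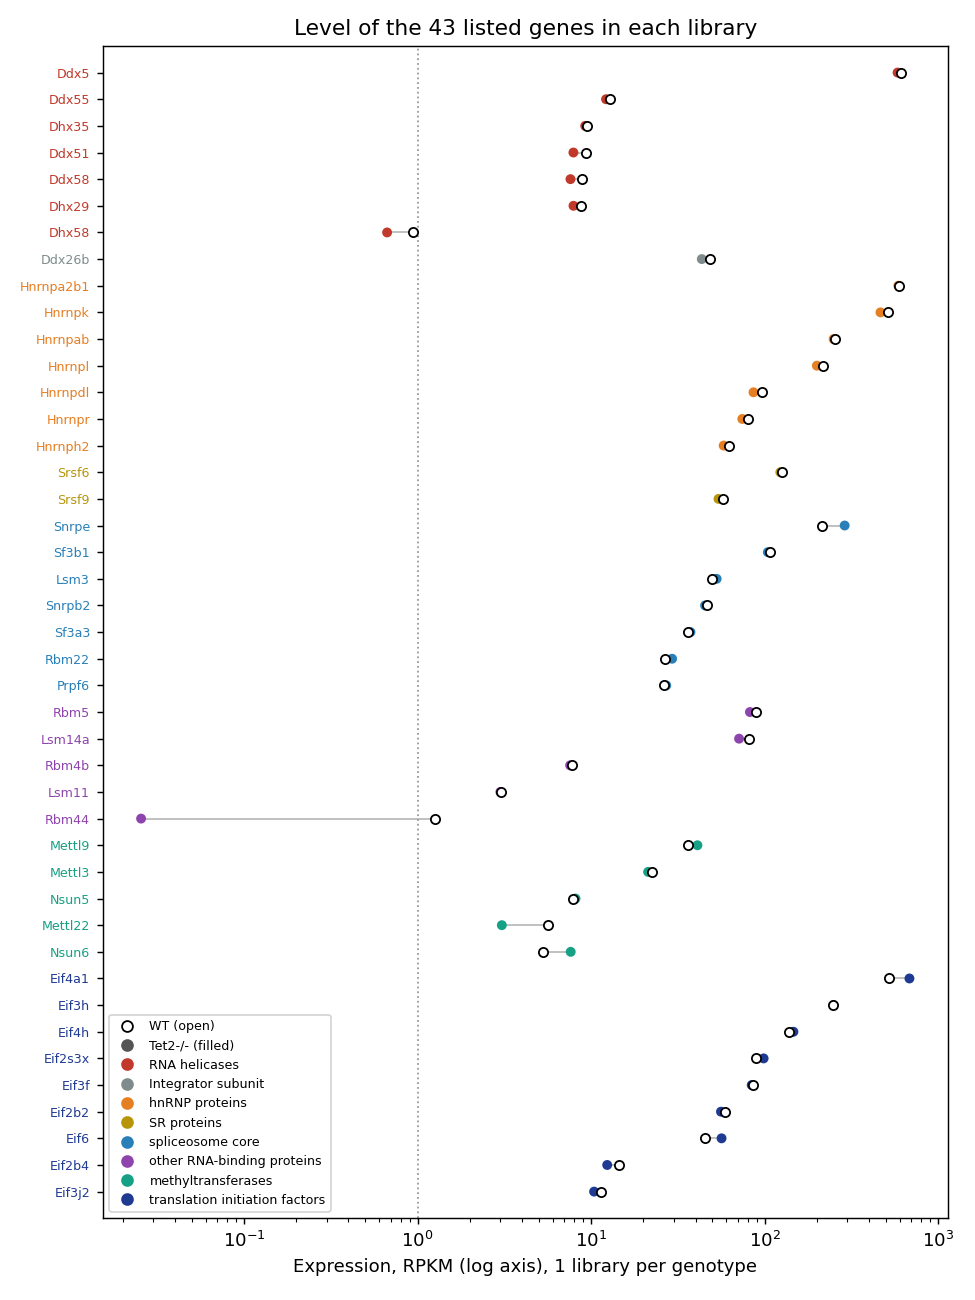
Expression in RPKM (log axis) of each of the 43 genes in the WT library (open circles) and the Tet2-/- library (filled circles), ordered by role and level, the dotted line marking 1 RPKM. The circles nearly coincide for most genes, whereas Rbm44 runs from 1.26 to 0.0255 RPKM.

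Levels spanned a wide range. In each library 11 genes reached 100 RPKM and 32 reached 10 RPKM. The highest in WT were Ddx5, Hnrnpa2b1, Eif4a1 and Hnrnpk, and in Tet2-/- Eif4a1 came before Hnrnpa2b1, Ddx5 and Hnrnpk. The Spearman correlation of the WT and Tet2-/- levels over the 41 genes, which are not replicates and share both libraries, was 0.99.

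The helicase gene Eif4a1, which is given with the initiation factors, was higher in the Tet2-/- library. Apart from it, all 7 listed RNA helicases were lower, with ratios from 0.712 to 0.974. Of all models past the filter, 48.0% were lower. The intervals of 4 of the 7 lay below 1, against 23.5% of all models. Ddx5 (p68), a DEAD-box helicase and transcriptional cofactor, was at 609.7 RPKM in WT against 584 RPKM in Tet2-/-, with a ratio of 0.958 (0.947 to 0.968). Its difference is small, and its narrow interval comes from its large number of fragments. Ddx51, which acts in ribosomal RNA maturation, was at 9.37 RPKM in WT against 7.91 RPKM in Tet2-/-, with a ratio of 0.844 (0.780 to 0.913). Ddx55, another helicase of large ribosomal subunit assembly, was at 12.8 RPKM in WT against 12.2 RPKM in Tet2-/-, with an interval that held 1. Dhx29, which helps the small ribosomal subunit scan structured mRNA leaders, was at 8.75 RPKM in WT against 7.92 RPKM in Tet2-/-, with a ratio of 0.905 (0.834 to 0.982). Dhx35, a spliceosome-associated helicase, was at 9.50 RPKM in WT against 9.25 RPKM in Tet2-/-, with an interval that held 1.

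Ddx58 and Dhx58 encode the cytoplasmic viral RNA sensors RIG-I and LGP2, which are interferon-inducible. Ddx58 was at 8.81 RPKM in WT against 7.61 RPKM in Tet2-/-, with a ratio of 0.863 (0.788 to 0.945). Dhx58 was near the lower limit, at 0.938 RPKM in WT against 0.668 RPKM in Tet2-/-, with a ratio of 0.712 (0.485 to 1.06), on an estimated 65 and 48 fragments. Both sensors were thus lower in Tet2-/-, but only the interval of Ddx58 left out 1. The symbol Ddx26b is an older name of Ints6l, which encodes a protein like Integrator subunit INTS6 and is no helicase of this family by function. It was at 48.5 RPKM in WT against 43.5 RPKM in Tet2-/-, with a ratio of 0.897 (0.860 to 0.935).

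All 7 listed hnRNP genes were lower in Tet2-/- as well, within a narrow band of ratios from 0.891 to 0.995. Of all models past the filter, 48.0% were lower. The intervals of 5 of the 7 lay below 1, against 23.5% of all models. Hnrnpdl, a relative of the AU-rich element binding protein hnRNP D, was at 96.8 RPKM in WT against 86.3 RPKM in Tet2-/-, with a ratio of 0.891 (0.863 to 0.921). Hnrnpk, a poly(C)-binding protein of the nucleus and cytoplasm, was at 518 RPKM in WT against 466 RPKM in Tet2-/-, with a ratio of 0.899 (0.878 to 0.921). Those 2 genes had the lowest ratios of the group. Hnrnpr was at 80.8 and 74.4 RPKM in WT and Tet2-/-, with a ratio of 0.921 (0.888 to 0.956). Hnrnpl, which binds CA repeats and represses or activates exons, was at 216 and 200.2 RPKM, with a ratio of 0.927 (0.903 to 0.951). Hnrnph2, which binds runs of G, was at 62.0 and 58.1 RPKM, with a ratio of 0.936 (0.889 to 0.986). The remaining pair lay closest to 1. Hnrnpab was at 254 and 250.0 RPKM, and Hnrnpa2b1, the highest of the hnRNP genes in both libraries, was at 593 and 590.2 RPKM, with a ratio of 0.995 (0.978 to 1.01). The median log2 fold of the group was -0.11, against 0.01 for all models.

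Both listed SR protein genes had intervals that held 1. Srsf6 was at 126 RPKM in WT against 123 RPKM in Tet2-/-, and Srsf9 was at 57.3 RPKM in WT against 54.3 RPKM in Tet2-/-, ratios of 0.974 (0.903 to 1.05) and 0.948 (0.886 to 1.01).

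Of the 7 genes taken as spliceosome components, 5 were higher and 2 lower in Tet2-/-. Roles were assigned gene by gene and not by prefix, and Lsm3 and Rbm22 were placed here. By prefix, past the filter, Sf3 and Snrp each had 1 gene higher and 1 lower. Lsm and Rbm each had 1 higher and 2 lower, and Prpf had 1 higher. Of all models, 48.0% were lower. Among the intervals of the 7 spliceosome genes, 1 lay above 1 and 1 below, against 27.1% and 23.5% of all models, and 4 held 1. Snrpe, which encodes the Sm ring protein SmE (mm10 coordinates chromosome 1, 133603871 to 133610291), was at 213 RPKM in WT against 289 RPKM in Tet2-/-, with a ratio of 1.36. It is the second highest ratio of the 43, and no interval is given because its shortest annotated transcript is under 400 bases. Rbm22, a protein of the activated spliceosome that contacts U6 RNA, was at 26.8 RPKM in WT against 29.3 RPKM in Tet2-/-, with a ratio of 1.09 (1.02 to 1.17). Lsm3, of the U6 Lsm ring, was at 49.7 RPKM in WT against 52.9 RPKM in Tet2-/-, and its interval held 1. Sf3a3 and Prpf6, of the U2 and the tri-snRNP, were at 36.1 and 37.4 RPKM and at 26.4 and 27.1 RPKM, and both intervals held 1. Sf3b1, the largest protein of the branch site recognition complex, was at 107 RPKM in WT against 104 RPKM in Tet2-/-, with a ratio of 0.977 (0.958 to 0.996). Snrpb2, of the U2 snRNP, was at 46.6 RPKM in WT against 45.4 RPKM in Tet2-/-, with an interval that held 1. Snrpe was 4.58 times the level of Snrpb2 in WT and 6.37 times in Tet2-/-, whereas Sf3b1 was 2.96 and 2.79 times the level of Sf3a3.

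**Figure D3:**
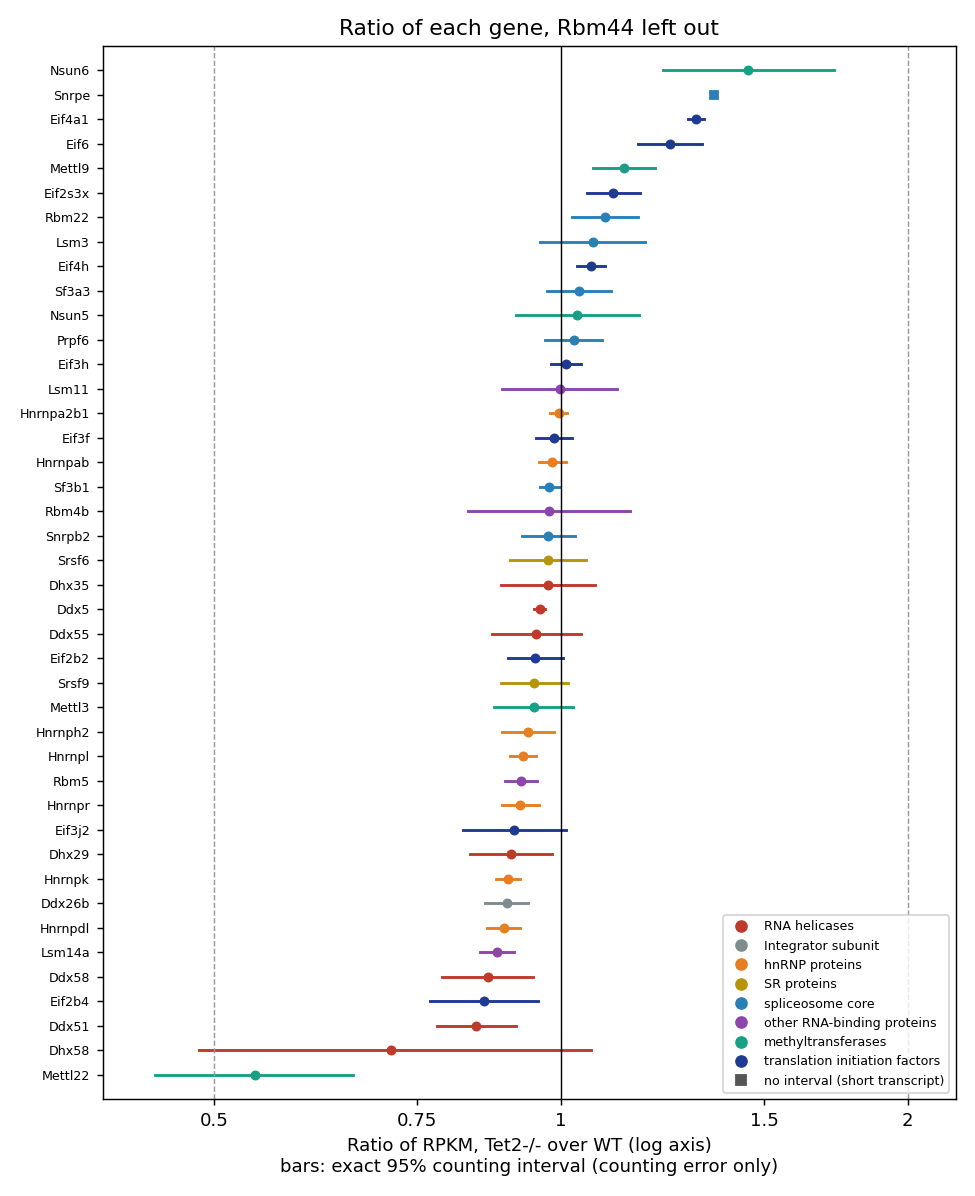
Ratio of RPKM, Tet2-/- over WT (log axis), for 42 genes, coloured by role, with exact 95% counting intervals as bars and a square where no interval was made; dashed lines mark 2-fold. All hnRNP genes and the 7 genes coloured as RNA helicases lie left of 1, while the initiation helicase Eif4a1 lies right of it. Nsun6, Snrpe, Eif4a1 and Eif6 lie farthest right, at 1.45, 1.36, 1.31 and 1.24.

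Among other RNA-binding proteins, Rbm44 had the widest difference of all 43 genes. Rbm44 (chromosome 1, 91145089 to 91170795), known from germ cells, was at 1.26 RPKM in WT against 0.0255 RPKM in Tet2-/-, on an estimated 144 and 3 fragments. WT was higher by a ratio of 49.3 (16.6 to 242). Its mean stayed under 1 RPKM, so it is not in the counts above and was singled out after its values were seen, and its log2 fold on the RPKM + 1 scale was -1.14. The other 4 genes of this group were also below WT, with ratios between 0.880 and 0.998, where 48.0% of all models were below. Lsm3 and Rbm22, both above WT, are counted with the spliceosome components instead. Lsm14a, a protein of cytoplasmic processing bodies, was at 81.1 RPKM in WT against 71.3 RPKM in Tet2-/-, with a ratio of 0.880 (0.850 to 0.910), and Rbm5, a regulator of exon choice in apoptosis genes, was at 89.2 RPKM in WT against 82.4 RPKM in Tet2-/-, with a ratio of 0.923 (0.895 to 0.953). Rbm4b was at 7.76 and 7.57 RPKM, and Lsm11, of the U7 snRNP that processes histone mRNAs, was at 3.01 and 3.00 RPKM, with intervals that held 1.

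The 5 methyltransferase genes held the lowest and the highest ratio past the filter. Mettl22 (chromosome 16, 8470788 to 8490684), a lysine methyltransferase that modifies protein and not RNA, was at 5.65 RPKM in WT against 3.06 RPKM in Tet2-/-, with a ratio of 0.542 (0.444 to 0.660), on an estimated 290 and 161 fragments. It is the gene beyond 1.5-fold. Nsun6 (chromosome 2, 14995131 to 15055069), which places 5-methylcytosine on tRNA and some mRNAs, was at 5.26 RPKM in WT against 7.63 RPKM in Tet2-/-, with a ratio of 1.45 (1.23 to 1.73), on an estimated 230 and 342 fragments. Its fold on the log2(RPKM + 1) scale was 0.46, short of 1.5-fold. Nsun5, which methylates ribosomal RNA, was at 7.89 and 8.14 RPKM, with an interval that held 1. The level of Nsun5 was 1.5 times that of Nsun6 in WT and 1.07 times in Tet2-/-. Mettl3, the catalytic subunit of the N6-adenosine methyltransferase of mRNA, was at 22.5 and 21.3 RPKM, with a ratio of 0.947 (0.875 to 1.02). Mettl9, a histidine methyltransferase of proteins, was at 36.2 RPKM in WT against 41.0 RPKM in Tet2-/-, with a ratio of 1.13 (1.06 to 1.21).

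Of the 9 initiation factor genes, 5 were higher and 4 lower in Tet2-/-, where 48.0% of all models were lower. The intervals lay above 1 for 4 and below 1 for 1, against 27.1% and 23.5% of all models. Eif4a1 (chromosome 11, 69666936 to 69672423), the DEAD-box helicase of the cap-binding complex, was at 522 RPKM in WT against 684 RPKM in Tet2-/-, with a ratio of 1.31 (1.29 to 1.33). It was the highest of the 43 genes in Tet2-/- and the third in WT. Its cofactor Eif4h was at 138 RPKM in WT against 147 RPKM in Tet2-/-, with a ratio of 1.06 (1.03 to 1.09), so that Eif4a1 stood at 3.78 times the level of Eif4h in WT and 4.66 times in Tet2-/-. Eif6 (chromosome 2, 155819832 to 155826925), which keeps free large ribosomal subunits from joining small ones, was at 45.4 RPKM in WT against 56.5 RPKM in Tet2-/-, with a ratio of 1.24 (1.17 to 1.33). Eif2s3x, the X-linked gene of the gamma subunit of eIF2, was at 88.9 RPKM in WT against 98.7 RPKM in Tet2-/-, with a ratio of 1.11 (1.05 to 1.17).

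The eIF2B and eIF3 genes lay close to or below 1. Eif2b4, the delta subunit of eIF2B, was at 14.5 RPKM in WT against 12.4 RPKM in Tet2-/-, with a ratio of 0.856 (0.769 to 0.955), and Eif2b2, the beta subunit, was at 59.0 RPKM in WT against 56.1 RPKM in Tet2-/-, with a ratio of 0.950 (0.899 to 1.00), an interval that still held 1. Eif2b2 was 4.08 times the level of Eif2b4 in WT and 4.53 times in Tet2-/-. The 3 eIF3 genes had intervals that held 1. Eif3h was at 247 and 249.7 RPKM, Eif3f at 85.5 and 84.3 RPKM and Eif3j2, which has the close paralogue Eif3j1 and is uncertain for that reason, at 11.4 and 10.4 RPKM. The order Eif3h, Eif3f, Eif3j2 was the same in both libraries.

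**Figure D4:**
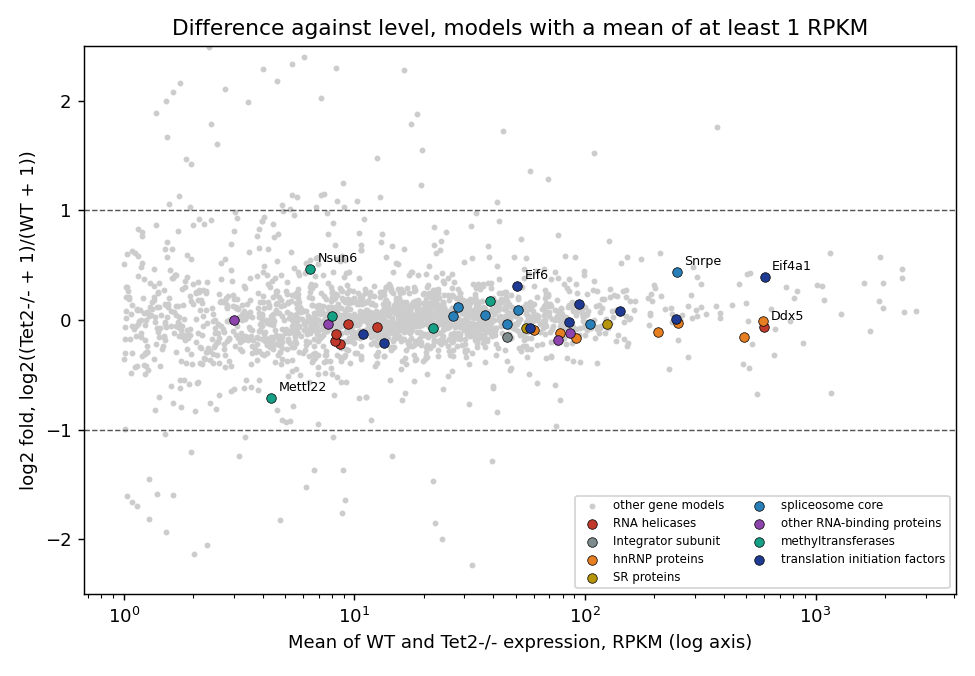
Log2 fold of Tet2-/- over WT on RPKM + 1 against the mean of both libraries in RPKM (log axis), for the 41 members coloured by role and 2043 other gene models in grey, with 23 more models beyond the axis; dashed lines mark 2-fold. Every member lies between the dashed lines, from -0.71 for Mettl22 to 0.46 for Nsun6.

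Genes of the same pathways with other names also showed small differences. Of 5 lists with 37 listed genes past the filter, 0 genes were beyond 1.5-fold in either direction, against 9.44% of all models. The median log2 fold was -0.06. Tet2-/- was below WT in 22 of the 37, or 59.5%, against 48.0% of all models. The counts that follow take differences of any size, also of genes whose interval held 1, and are no test. Of the 11 listed among 67 other splicing factors, 6 were higher and 5 lower in Tet2-/-, with Rnps1, of the exon junction complex, at 26.1 and 39.0 RPKM and Gemin4, of the SMN complex, at 6.69 and 8.74 RPKM. Of the 14 listed among 44 other RNA-binding proteins, 4 were higher and 10 lower, with Msi2, a translational regulator of haematopoietic stem cells, at 18.2 and 13.8 RPKM and Tial1, of stress granules, at 76.2 and 59.7 RPKM. Of 22 other helicases 8 were listed and 6 passed the filter. Of these 6, 1 was higher and 5 lower, with Helz2 at 4.45 and 3.84 RPKM and Mov10 at 3.35 and 2.89 RPKM. Of the 4 listed among 37 other genes of RNA methylation and its readers, 3 were higher and 1 lower, with the cap methyltransferase gene Rnmt at 19.0 and 21.8 RPKM and the m6A reader gene Ythdf2 at 33.5 and 37.8 RPKM. Of 30 further translation factors, mostly of elongation, termination and recycling, 2 were listed, Mtif3, a mitochondrial initiation factor gene, at 9.26 and 6.58 RPKM and Gspt1, of the release factor eRF3, at 61.7 and 61.8 RPKM.

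Some values may hold reads of other genes. Exons of 12 of the 43 genes overlap an annotated gene on the opposite strand, and whether reads were counted by strand is not stated. These are Dhx58, Hnrnpk, Hnrnpr, Hnrnpl, Hnrnpab, Mettl3, Mettl9, Nsun5, Lsm14a, Rbm4b, Eif2b4 and Eif6. For 8 genes, among them Eif4a1 with 3 and Snrpe with 1, an annotated pseudogene matched the transcript at 95% identity or more over at least 200 bases. How reads shared with such copies were counted is not stated, and these values are uncertain for that reason.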

How the data were processed

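RNA-seq was measured in 1 WT and 1 Tet2-/- mast cell library, each prepared with a TruSeq kit (1 µg total RNA), per the labels' protocols. The authors deposited a table of RPKM values, per the file headers. The build named is mm10, per the submitters' processing notes. Which aligner, counting program and annotation were used is not given in the sources. A value of 0.01 stands for 58.1% of models in WT and 57.4% in Tet2-/-. RPKM lowers all genes where a few take many reads, and short models are unstable.

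Folds are log2((Tet2-/- + 1)/(WT + 1)), which understates low genes, for models averaging 1 RPKM or more. Ratios are of RPKM. Depth was inferred as the number of fragments that made low values of single-transcript genes whole within 0.1. This held for 95.5% of 471 genes in WT and 95.5% of 485 in Tet2-/-. Depth and fragment length were chosen to make this share highest. The 20% that chance gives is for a setting not so chosen, so the 2 are not a like comparison. Fragment numbers used the shortest basic transcript in GENCODE mouse release 21 (GRCm38, the build of mm10), its length reduced for fragment size. No interval was made under 400 bases. Calls and intervals were tested on simulated data with known depths, fragment sizes and transcript lengths. The doubt about these in the real libraries was not part of that test. Pseudogene copies were found with blastn 2.17.0, promoters came from RefSeq, and the motifs and promoter choice were set after seeing the values. Protein sequences were not used here. Tables were handled with pandas 2.3.3 and numpy 2.4.6 in Python 3.11.15, intervals with scipy 1.17.1 and plots with matplotlib 3.10.9.

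The members and lists were chosen with earlier results of these data known. Every member could be named. Ratios with intervals went to the 12 farthest from 1 in each direction and the highest of each prefix group, and 2 genes were named per list. A few further intervals were added after the values were seen.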

Additional observations from a re-analysis of the deposited data

How the results depend on the processing

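No member was higher by 1.5-fold or more under any of the alternatives run. The count lower by 2-fold or more, 0 as reported, became 1 with no filter (Rbm44) and 1 at a threshold of 1.5-fold (Mettl22). The count lower by 1.5-fold, 1 as reported, became 0 with a pseudocount of 5 RPKM, 0 where the mean had to reach 5 RPKM, 0 where it had to reach 10 RPKM, and 2 with no filter. The limits to 10 RPKM and to protein-coding genes were chosen after seeing the data. The number of members below WT stayed between 21 and 30, the 21 being of the 32 genes averaging 10 RPKM or more, and the median log2 fold of the members stayed between -0.05 and -0.03, also with each prefix group left out. The 56 alternative medians of members and lists moved by less than 0.1. The list of splicing factors turned from 0.0073 to -0.0022 when Tet2-/- was divided by the median ratio of all models, 1.007. The 84 alternative ratios say nothing of stability, since a ratio of RPKM does not depend on the transcript length and the scaling divides every gene by the same value. The interval of Srsf6 left 1 with the longest transcript, and that of Eif2b2 with the median-ratio scaling. No paired analysis was possible because WT and Tet2-/- have 1 library each. That also kept any library from being left out. Depth limits Dhx58 and Rbm44 most, with 144 fragments or fewer in either library.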

Other observations

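Beyond the comparisons above, some values of the members stood out, and no cause was tested for any of them. Around Rbm44, 4 other protein-coding genes within 500 kb were listed. The nearest, Lrrfip1, was at 33.3 and 42.4 RPKM in WT and Tet2-/-, Per2, a circadian clock gene, at 3.47 and 1.55 RPKM, Col6a3 at 1.45 and 1.07 RPKM, and Klhl30 at 0.01 and 0.0215 RPKM. In the whole table, 5 protein-coding genes were at 1 RPKM or more in WT and under 0.1 in Tet2-/-, Rbm44 being one of them, of 1763 at 1 RPKM or more in WT. The reverse held for 3 of 1773.

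Members with longer transcripts had lower ratios. The Spearman correlation of the log2 fold with the length of the longest basic transcript was -0.38 over the 41 members and -0.12 over 1768 protein-coding genes, all measured in the same 2 libraries. Of the 5 members of 4000 bases or more 0 were above WT, and of the 24 from 2000 to under 4000 bases 6 were above. The share of all genes above WT in each class is not given. The 5 had ratios of 0.998 (Lsm11), 0.977 (Sf3b1), 0.921 (Hnrnpr), 0.905 (Dhx29) and 0.844 (Ddx51). Hnrnpr is among them only by its longest transcript of 21452 bases, its shortest being 2543. Both members under 1000 bases, Snrpe and Lsm3, were above. Over all protein-coding genes past the filter the median log2 fold was 0.20 under 1000 bases, 0.03 from 1000 to under 2000, 0.0019 from 2000 to under 4000 and -0.008 at 4000 or more, so short genes were higher in the whole table as well. The members' medians in these classes were 0.26, 0.003, -0.06 and -0.12. Length classes this small can turn on single genes.

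The letters CACGTG, which read the same on both strands, were in the 200 bases before the start of 4 of the 36 members with a promoter, or 11.1%, against 8.21% of 1425 listed protein-coding genes past the filter. They were Eif3f, Eif4a1, Eif4h and Dhx35. TATAAA, searched on both strands, was in 2 of the 36, or 5.56%, against 3.51% of those genes and 10.1% of all 17492 protein-coding genes with a promoter. For CACGTG the share of all was 5.81%. CCGGAAGT, also on both strands, was in 2 of the 36, or 5.56%, against 5.82% of listed genes past the filter and 3.60% of all.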
